A study of Mus musculus with 6 samples.

Results

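Integrins and laminins are cell surface receptors and the basement membrane proteins that many of them bind. They were described here by RNA-seq in vascular smooth muscle cells (VSMCs) of the mouse, the contractile cells of the arterial wall. The members were all protein-coding genes in the deposited table whose symbol named an integrin alpha or beta subunit or a laminin chain. This gave 37 genes of 54532 in the table, 26 integrins and 11 laminins. The 6 libraries were wild-type (WT) cells carrying an adenoviral vector, 3 with a control plasmid (Ad-Con) and 3 with an overexpression plasmid for pyruvate dehydrogenase kinase 4 (Ad-PDK4), a mitochondrial kinase that inhibits pyruvate dehydrogenase. According to the study, these were cultured mouse aortic smooth muscle cells, and both groups also received angiotensin II (Ang II) after the vector, which the labels do not mention. Neither cells without Ang II nor cells without a vector were analysed here. The comparison asks how PDK4 overexpression alters expression in these cells.

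The level of mouse Pdk4 went against the labels. In the libraries labelled Ad-Con its level was 9.50, 10.4 and 10.1 FPKM (fragments per kilobase of gene length, scaled to library size), and in those labelled Ad-PDK4 it was 7.67, 7.40 and 7.38 FPKM. All 3 libraries labelled Ad-PDK4 were thus below all 3 labelled Ad-Con, with a log2 fold change of -0.42 ± 0.06 (SE, adjusted p = 0.0011). The study amplified its PDK4 coding sequence with the primers it lists for mouse Pdk4, but does not say whether the vector carried this sequence. Whether transcripts of the vector's PDK4 are counted in this mouse gene is not given in the sources used here. The directions below therefore compare the libraries labelled Ad-PDK4 with those labelled Ad-Con. The libraries held between 17588942 and 21861872 reads on genes, of which the members took 0.395% to 0.440%. Replicates of 1 label differed from each other by a chi-square per degree of freedom of 4.17 to 11.7 and libraries of different labels by 84.4 to 107, so none of them was a repeat of another. The highest value within a label was that between replicates 2 and 3 of Ad-PDK4.

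Of the smooth muscle markers, Acta2 (smooth muscle actin) had 78.0 ± 0.950 FPKM (SD, n = 3) in Ad-Con and 36.2 ± 2.40 in Ad-PDK4. Myh11, the smooth muscle myosin heavy chain, had 2, 2 and 2 reads in Ad-Con and 10, 7 and 2 in Ad-PDK4, in overlapping groups. Tagln and Cnn1 had 4 to 30 reads per library, so that these defining markers, with Myh11, were close to absent under both labels. The summed level of the 9 smooth muscle markers was 87.8 to 89.4 FPKM in Ad-Con and 43.3 to 48.1 in Ad-PDK4, most of it Acta2. In bulk RNA, fewer cells of a type and less RNA per cell cannot be told apart.

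An integrin is a heterodimer of an alpha and a beta subunit. The alpha subunit largely decides which matrix protein is bound, and the beta subunit links the receptor through talin and kindlin to actin. Laminins are cross-shaped trimers of an alpha, a beta and a gamma chain that polymerise into the sheet of the basement membrane, which surrounds each smooth muscle cell in the arterial media. Contractile smooth muscle is known for laminin receptors such as α7β1, and cells in the synthetic state for the fibronectin receptor α5β1.

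The members spanned a wide range of levels. Itgb1, the beta subunit shared by most integrins, was the highest at 231 ± 7.54 FPKM in Ad-Con (SD, n = 3), ahead of Lamb2 at 123 ± 5.66 and Itgb5 at 94.7 ± 4.16. Mean FPKM was at least 10 under both labels for 9 members, and 24 members reached the mean of 0.5 FPKM over all libraries that was needed for the test. The other 13 members fell below it, and 3 of these had no read in any library. The plot of levels by library shows 36 of the 37.

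**Figure D1:**
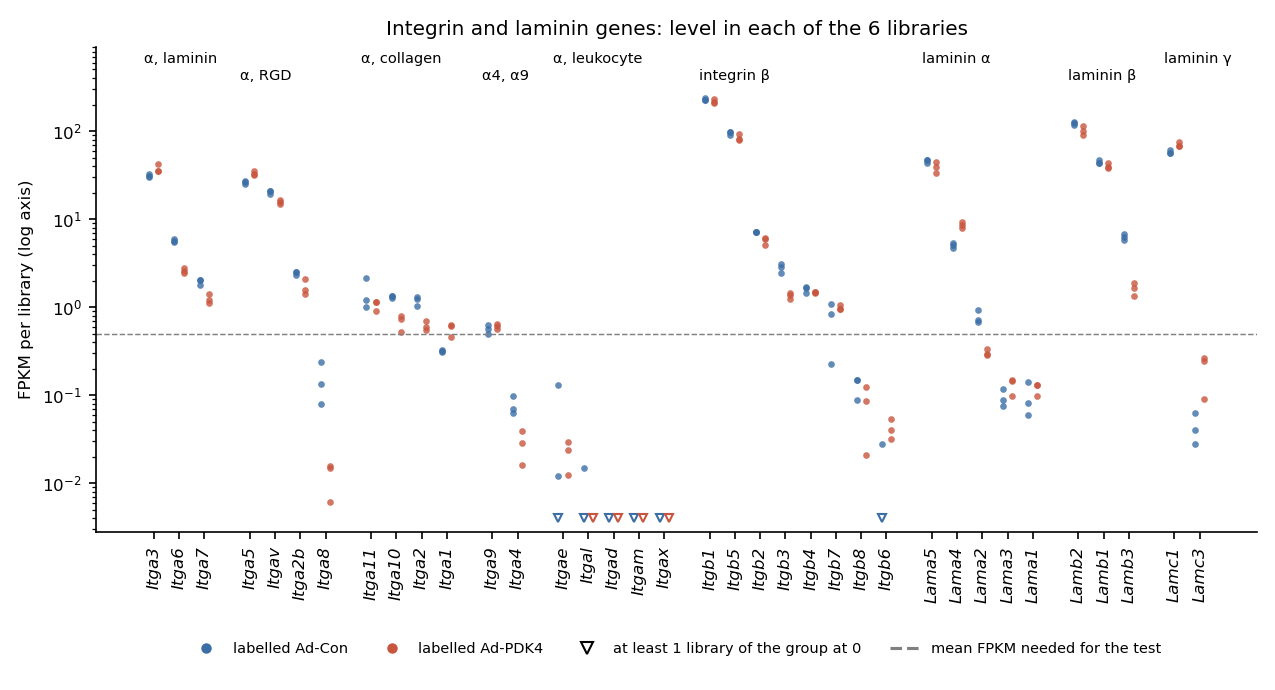
FPKM of 36 integrin and laminin genes (log axis) in the 3 libraries labelled Ad-Con (blue) and the 3 labelled Ad-PDK4 (red), by subunit class. Each point is 1 library, open triangles stand for libraries at 0, and the dashed line is the mean of 0.5 FPKM needed for the test. Itgb1 and Lamb2 lie at the top, and Lamb3, Itga6 and Itgb3 have well separated groups.

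Of the 24 tested members, 5 were higher in Ad-PDK4 and 11 were lower at an adjusted p below 0.05 (limma, Benjamini-Hochberg over 13423 genes), and 8 did not pass. Among all tested genes 21.8% were called higher and 20.8% lower. With a fold change of at least 2 as well, 1 member was higher and 3 were lower (Lamb3, Itga6 and Lama2), beside 3.95% and 2.68% of all tested genes. The groups did not overlap for 17 of the 24 members, and for 54.3% of all tested genes. The median log2 fold change was -0.34 over the 16 tested integrins, -0.20 over the 8 tested laminins and -0.003 over all tested genes. Without the filter on low levels the median of all 11 laminins was 0.19, so its sign depended on the chains of low level. Fold changes are on the log2(FPKM + 0.1) scale, which understates the change of genes of low level.

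**Figure D2:**
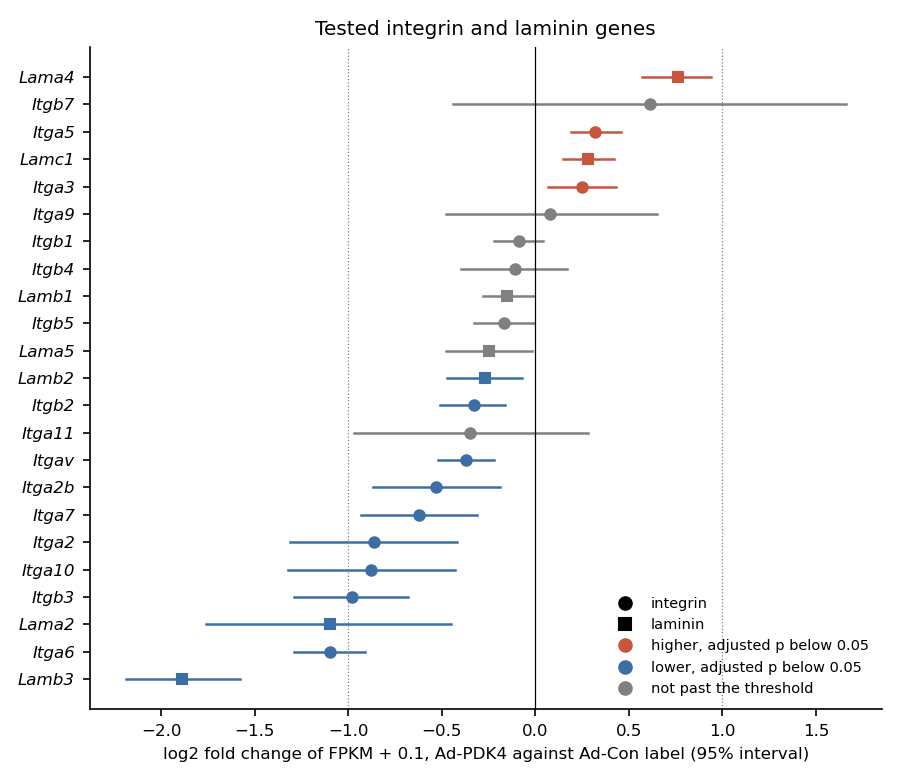
Log2 fold change (Ad-PDK4 against Ad-Con, FPKM + 0.1) with its 95% interval for 23 of the 24 tested members, ordered by size. Circles are integrins and squares laminins, red and blue mark calls at an adjusted p below 0.05, grey marks the rest, and dotted lines mark a fold of 2. Lamb3 has the lowest value at -1.89, and Lama4 lies at 0.76.

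Among the laminin alpha chains, which carry the receptor-binding domains, Lama4 rose and Lama2 fell, and Lama5 was the most abundant throughout. Lama4, a chain of blood vessel basement membranes (chr10:38965515-39110188, GRCm38), had 5.07, 5.39 and 4.71 FPKM in Ad-Con and 7.98, 8.65 and 9.21 in Ad-PDK4. The groups did not overlap, and the log2 fold change was 0.76 ± 0.08 (SE, adjusted p = 2.3e-04). Lama2, the main alpha chain of muscle laminin (chr10:26980036-27619758), had 0.668, 0.927 and 0.722 FPKM in Ad-Con and 0.333, 0.283 and 0.294 in Ad-PDK4. All Ad-PDK4 libraries were below all Ad-Con libraries, at a log2 fold change of -1.10 ± 0.28 (adjusted p = 0.015). Lama2 passed the filter through its level in Ad-Con, was no longer tested without Ad-Con replicate 2, and had a value of -0.44 with a pseudocount of 1.

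Lama5, a widely expressed chain, had 47.3, 47.4 and 43.1 FPKM in Ad-Con against 38.5, 44.5 and 33.5 in Ad-PDK4. The groups overlapped in 1 library of each, and the log2 fold change of -0.25 ± 0.10 did not pass (adjusted p = 0.082), although it did without Ad-PDK4 replicate 2 (-0.35, adjusted p = 0.012). Lama1 and Lama3 were too low to be tested, with 10 to 28 and 14 to 35 reads per library in overlapping groups. Lama4 made up 9.53%, 10.0% and 9.67% of the summed laminin alpha FPKM in Ad-Con and 17.0%, 16.1% and 21.3% in Ad-PDK4. The sum itself was 51.9 ± 2.78 FPKM in Ad-Con and 48.0 ± 5.28 in Ad-PDK4 (SD, n = 3), a smaller difference than the spread in Ad-PDK4.

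Among the laminin beta chains, Lamb3 had the largest fall of the tested members. Lamb3 encodes the β3 chain (chr1:193207699-193343878, plus strand), known from an epithelial laminin that anchors skin to its basement membrane. Its level was 6.75, 5.73 and 6.26 FPKM in Ad-Con and 1.34, 1.88 and 1.66 in Ad-PDK4, so that the highest Ad-PDK4 library was well below the lowest Ad-Con library. The log2 fold change was -1.89 ± 0.13 (adjusted p = 2.3e-05), from 2324 reads in Ad-Con and 621 in Ad-PDK4. The ratio of the means was 0.260.

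Of the epithelial markers, Krt18 and Krt19 fell as Lamb3 did, and their part in its fall was not tested. Of the 9 markers, 4 had no read in any library, among them the defining genes Epcam, Krt5 and Krt14, and Krt18 and Krt19 were the only 2 that passed the filter. Krt18 went from 37.0 ± 1.14 to 15.1 ± 0.826 FPKM and Krt19 from 53.4 ± 5.75 to 22.1 ± 2.24 (SD, n = 3 per label). Cdh1, of the same list, had 62, 26 and 27 reads in Ad-Con and 31, 32 and 31 in Ad-PDK4, in overlapping groups. The summed level of the list was 83.2 to 96.2 FPKM in Ad-Con and 34.4 to 40.3 in Ad-PDK4, most of it Krt18 and Krt19.

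RefSeq promoter windows (GRCm38.p6) ran from 250 bases before to 50 bases after an annotated start, and 23 of the 37 members matched at least 1. The Lamb3 window is shown because Lamb3 had the lowest log2 fold change of the tested members, and it lies inside the gene span of the deposited table, which begins upstream of it. The capitals mark the match to an NF-kB motif, searched on both strands as were all motifs, which 4.51% of 32851 windows of 300 bases held.
Lamb3 chr1:193301744-193302043: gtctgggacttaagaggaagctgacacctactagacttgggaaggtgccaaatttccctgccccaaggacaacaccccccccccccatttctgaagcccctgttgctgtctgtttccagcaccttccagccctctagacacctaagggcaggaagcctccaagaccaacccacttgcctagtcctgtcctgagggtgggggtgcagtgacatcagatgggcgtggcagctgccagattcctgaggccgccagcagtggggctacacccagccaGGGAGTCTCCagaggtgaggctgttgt
The window also held 3 E-boxes (CANNTG, in 72.3% of all windows), not capitalised, and no AP-1 (TGANTCA, 7.81%) or GC box (GGGCGG, 35.7%) letters. A match of letters is a description and not a binding site.

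Lamb2, the β2 chain of vascular and neuromuscular basement membranes, had 123, 128 and 117 FPKM in Ad-Con and 101, 115 and 90.8 in Ad-PDK4. The groups did not overlap, but the adjusted p of 0.037 at a log2 fold change of -0.27 ± 0.09 was close to the threshold. The call was lost in 9 of 16 alternatives, including the removal of any single library other than Ad-PDK4 replicate 2, with adjusted p between 0.057 and 0.10 in those 5 cases. Lamb1, the other widely expressed beta chain (chr12:31265234-31329644), had 43.5, 46.7 and 43.5 FPKM in Ad-Con and 38.4, 43.0 and 39.5 in Ad-PDK4. The groups did not overlap, yet the log2 fold change of -0.15 ± 0.06 did not pass (adjusted p = 0.083). It passed without Ad-PDK4 replicate 2 at -0.19 (adjusted p = 0.026).

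Of the gamma chains, Lamc1, that of most laminins (chr1:153218922-153332786), rose. It had 56.8, 60.1 and 55.8 FPKM in Ad-Con and 67.6, 74.8 and 67.7 in Ad-PDK4, with a log2 fold change of 0.28 ± 0.06 (adjusted p = 0.0058). The groups did not overlap.

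Lamc3 was too low for the test, with 5, 3 and 7 reads in Ad-Con and 10, 28 and 33 in Ad-PDK4. Its groups did not overlap, and the log2 fold change without the filter was 1.01 ± 0.36 (adjusted p = 0.10).

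Read as trimers, Lama4 and Lamc1 of α4β1γ1 rose and Lamb1 did not pass, while in α4β2γ1 the beta chain Lamb2 fell. In the α5 trimers with Lamb1 or Lamb2, Lama5 did not pass and Lamc1 rose. For α2β2γ1, Lama2 and Lamb2 fell and Lamc1 rose. Lama3 reached at most 0.147 FPKM in any library. The summed FPKM of the beta chains was 174 ± 6.99 in Ad-Con and 144 ± 14.3 in Ad-PDK4 (SD, n = 3). Of this sum Lamb3 took 3.90%, 3.17% and 3.75% in Ad-Con and 0.949%, 1.17% and 1.26% in Ad-PDK4, without overlap.

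**Figure D3:**
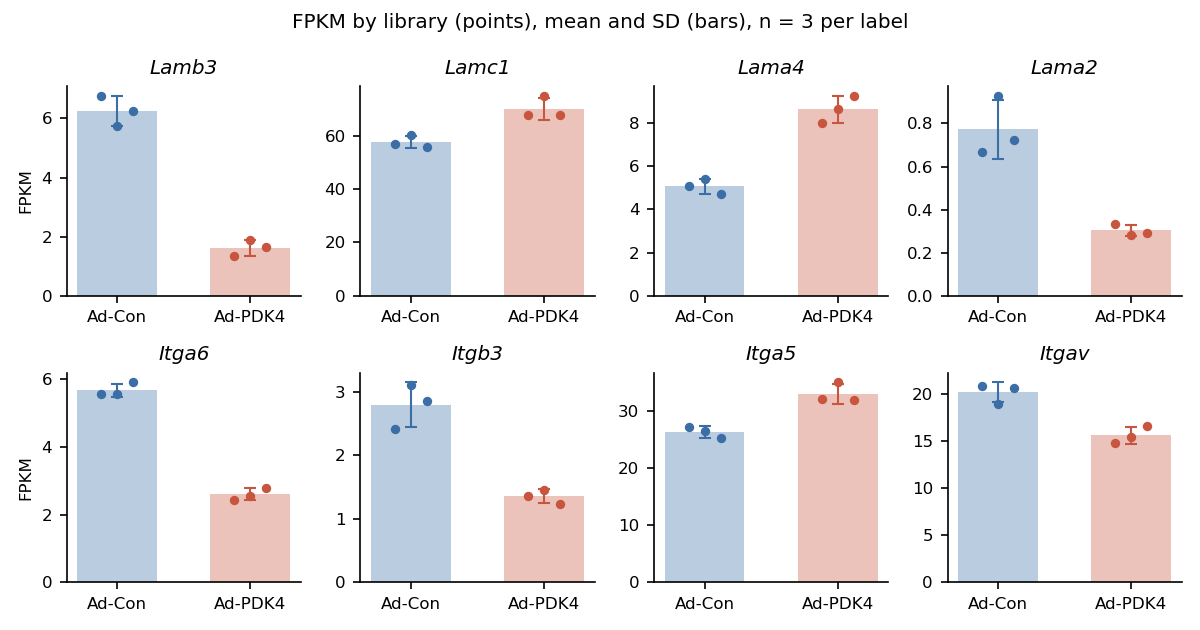
FPKM of 4 laminin chains (upper row) and 4 integrin subunits (lower row) in each library (points), with the mean (bar) and SD (error bar, n = 3) for Ad-Con (blue) and Ad-PDK4 (red). The points of the 2 labels do not overlap in any panel, with Lamc1, Lama4 and Itga5 higher and Lamb3, Lama2, Itga6, Itgb3 and Itgav lower in Ad-PDK4.

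The integrin alpha subunits that bind laminin split in direction. Itga6, which pairs with β1 or β4 (chr2:71745616-71858416), had 5.55, 5.56 and 5.89 FPKM in Ad-Con and 2.44, 2.56 and 2.79 in Ad-PDK4. The replicates were close together and the groups far apart, at a log2 fold change of -1.10 ± 0.08 (adjusted p = 3.5e-05). With a pseudocount of 1 it was -0.89. Another annotated gene, Gm29397, shares 7.56% of the longest Itga6 transcript.

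Itga7, the α7 subunit typical of muscle, had 1.77, 2.01 and 2.04 FPKM in Ad-Con and 1.19, 1.39 and 1.12 in Ad-PDK4, and fell without overlap (-0.62 ± 0.13, adjusted p = 0.0075). Itga3, the most abundant alpha subunit, had 32.6, 31.2 and 30.2 FPKM in Ad-Con and 35.4, 42.0 and 34.7 in Ad-PDK4. Its groups did not overlap, but the rise of 0.25 ± 0.08 was close to the threshold (adjusted p = 0.036) and lost the call in 7 of 16 alternatives, among them the removal of any 1 Ad-Con library (adjusted p 0.055 to 0.11) or of Ad-PDK4 replicate 1 (0.052). The ratio of Itga6 to Itga3 FPKM was 0.170, 0.178 and 0.195 in Ad-Con and 0.0689, 0.0609 and 0.0804 in Ad-PDK4. Itga3 lies 3119 bases from Pdk2, the neighbouring gene on the same strand and another pyruvate dehydrogenase kinase, which fell from 18.8 ± 0.395 to 8.23 ± 0.950 FPKM (SD, n = 3).

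Among the alpha subunits that bind the RGD motif of fibronectin, vitronectin and similar ligands, Itga5 rose and Itgav fell. Itga5, the fibronectin receptor subunit (chr15:103344286-103366763), had 27.2, 26.4 and 25.2 FPKM in Ad-Con and 32.1, 34.9 and 31.8 in Ad-PDK4, at a log2 fold change of 0.32 ± 0.06 (adjusted p = 0.0028). Itgav, the shared alpha subunit of the vitronectin receptors (chr2:83724397-83806916), had 20.9, 19.0 and 20.7 FPKM in Ad-Con and 14.8, 15.5 and 16.6 in Ad-PDK4, at -0.37 ± 0.07 (adjusted p = 0.0027). Neither gene had overlapping groups, and both kept their call in all 16 alternatives. The ratio of Itga5 to Itgav was 1.30, 1.39 and 1.22 in Ad-Con and 2.18, 2.25 and 1.92 in Ad-PDK4.

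The promoter windows of Itga5 and Itgav are shown as those of the most abundant pair of called alpha subunits of 1 ligand class that moved apart. The capitals mark GC boxes (GGGCGG or its complement CCGCCC), and neither window held an NF-kB match.
Itga5 chr15:103366742-103367041: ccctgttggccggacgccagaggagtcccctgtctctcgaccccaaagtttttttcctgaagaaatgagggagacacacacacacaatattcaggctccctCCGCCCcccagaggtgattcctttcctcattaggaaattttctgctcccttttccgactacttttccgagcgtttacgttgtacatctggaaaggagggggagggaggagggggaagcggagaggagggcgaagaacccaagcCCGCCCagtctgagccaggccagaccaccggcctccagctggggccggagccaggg
Itgav chr2:83724147-83724446: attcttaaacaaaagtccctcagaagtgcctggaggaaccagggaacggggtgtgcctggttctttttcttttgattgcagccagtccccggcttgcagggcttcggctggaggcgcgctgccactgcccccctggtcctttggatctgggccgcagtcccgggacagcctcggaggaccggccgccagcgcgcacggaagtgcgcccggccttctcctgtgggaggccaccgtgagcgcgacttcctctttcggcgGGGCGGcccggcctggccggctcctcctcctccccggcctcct
The Itga5 window held 2 GC boxes and the Itgav window 1, while over all windows 35.7% held at least 1. Of the 11 windows found for 9 called members, 6 held a GC box, 8 an E-box, 2 the NF-kB motif, 2 the GAS letters (TTCNNNGAA, 8.30% of all windows), 1 the AP-1 letters and 1 a CArG box (1.63%), and none held TATAAA (13.6%). Both NF-kB windows were overlapping ones of Lamb3.

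Itga2b, which pairs with β3 in the platelet fibrinogen receptor, had 2.48, 2.33 and 2.52 FPKM in Ad-Con and 1.56, 2.06 and 1.41 in Ad-PDK4. It fell by 0.53 on the log2 scale (SE 0.15, adjusted p = 0.022) without overlap, but the call was lost without Ad-Con replicate 1, Ad-Con replicate 3, Ad-PDK4 replicate 1 or Ad-PDK4 replicate 3 (adjusted p 0.059 to 0.069). Of 7 platelet markers 4 had no read, including Ppbp and Gp6, and their summed level was 0.545 to 0.894 FPKM in Ad-Con and 0.600 to 0.815 in Ad-PDK4. Itga8, a smooth muscle subunit of the same class, was untested, with 12, 31 and 18 reads in Ad-Con and 2, 2 and 1 in Ad-PDK4. With 3 reads set in each Ad-PDK4 library, the Ad-Con mean was 7.09-fold higher, a value that leaves out the spread in Ad-Con. Without the filter the log2 fold change of Itga8 was -1.12 ± 0.32 and did not pass (limma, adjusted p = 0.053).

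Of the collagen-binding alpha subunits 3 were tested and 2 fell, beside 20.8% lower among all tested genes. Itga10 had 1.33, 1.35 and 1.27 FPKM in Ad-Con and 0.784, 0.727 and 0.524 in Ad-PDK4 (-0.88 ± 0.19, adjusted p = 0.0078). Itga2 had 1.23, 1.03 and 1.31 FPKM in Ad-Con and 0.547, 0.689 and 0.590 in Ad-PDK4 (-0.86 ± 0.19, adjusted p = 0.0084). In both genes every Ad-PDK4 library was below every Ad-Con library. Itga10 shares 34.5% of its longest transcript with Gm42957, an overlapping gene with at most 1 read per library. How reads on the shared part were counted is not given in the sources used here.

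Itga1 was untested and went the other way, with 123, 100 and 107 reads in Ad-Con and 155, 205 and 252 in Ad-PDK4. Its groups did not overlap, and without the filter its log2 fold change was 0.67 ± 0.22 (adjusted p = 0.074). Itga1 lies 20995 bases from Itga2 on chromosome 13. Itga11 had 1.45 ± 0.623 FPKM in Ad-Con, with 1 high library at 2.16, and 1.07 ± 0.135 in Ad-PDK4 (SD, n = 3), and did not pass (limma, adjusted p = 0.34). Together the collagen-binding subunits summed to 4.27 ± 0.509 FPKM in Ad-Con and 2.92 ± 0.0436 in Ad-PDK4 (SD, n = 3).

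Itga9 had 0.563 ± 0.0726 FPKM in Ad-Con and 0.601 ± 0.0389 in Ad-PDK4 and did not pass, with a log2 fold change of 0.08 and a 95% interval from -0.48 to 0.65. Its relative Itga4 had 16 to 24 reads per library in Ad-Con and 5 to 10 in Ad-PDK4. Cerkl, a gene on the other strand with 10 to 27 reads, overlaps 8.04% of the Itga4 exon bases. Without strand information, reads on that part cannot be told apart. The leukocyte alpha subunits were close to absent. Itgam, Itgax and Itgad, neighbours on chromosome 7, had no read in any library, Itgal had 2 in 1 Ad-Con library, and Itgae had 0 to 12. Itgam shares 73.7% of its longest transcript with Gm49368, which also had no read.

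Of the 6 tested integrin beta subunits none rose and 2 fell, beside 21.8% higher and 20.8% lower among all tested genes. Itgb1 (chr8:128685654-128733200) had 226, 239 and 227 FPKM in Ad-Con and 215, 206 and 230 in Ad-PDK4. The groups overlapped, and the log2 fold change was -0.09 ± 0.05 (adjusted p = 0.23) with a 95% interval from -0.22 to 0.04. Under quantile normalization it was 0.00, so that no direction can be given. Itgb5, a partner of Itgav, had 96.4, 97.7 and 89.9 FPKM in Ad-Con and 81.0, 92.7 and 79.0 in Ad-PDK4, overlapped in 1 library of each group and did not pass (-0.17 ± 0.07, adjusted p = 0.086). It passed without Ad-PDK4 replicate 2 (-0.24, adjusted p = 0.011).

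Itgb3, the partner of Itgav and Itga2b, had 2.41, 3.11 and 2.85 FPKM in Ad-Con and 1.36, 1.46 and 1.24 in Ad-PDK4. It fell without overlap, at -0.98 ± 0.13 (adjusted p = 6.8e-04). Itgb2, known as the leukocyte beta subunit, had 7.18, 7.18 and 7.14 FPKM in Ad-Con and 5.13, 6.05 and 5.86 in Ad-PDK4 and fell as well (-0.33 ± 0.08, adjusted p = 0.0097). Of 13 leukocyte markers 7 had no read, among them Ptprc and Tyrobp, and 9 had at most 3 reads in any library. Their summed level was 13.8 to 16.7 FPKM in Ad-Con and 3.90 to 5.86 in Ad-PDK4, most of it Cd68, a lysosomal protein of macrophages, at 14.2 ± 1.78 and 4.24 ± 0.991. Csf1r, the macrophage growth factor receptor of the same list, went the other way, with 11, 23 and 35 reads in Ad-Con and 56, 62 and 61 in Ad-PDK4. Their part in the fall of Itgb2 was not tested.

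Itgb4, the partner of Itga6 in epithelia, had 1.59 ± 0.139 and 1.46 ± 0.0311 FPKM and did not pass (-0.11 ± 0.12, adjusted p = 0.49). Itgb7 varied too widely in Ad-Con, at 0.834, 0.226 and 1.08 FPKM, for its value of 0.61 ± 0.45 to pass (adjusted p = 0.32). Itgb8 (4 to 33 reads per library) and Itgb6 (0 to 7) were not tested.

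Read as heterodimers, both subunits of αvβ3 and of αIIbβ3 fell. In the β1 family the shared subunit did not pass, while Itga5 and Itga3 rose and Itga6, Itga7, Itga2, Itga10 and Itgav fell. The summed alpha FPKM was 95.6, 92.3 and 91.2 in Ad-Con and 91.2, 102 and 91.9 in Ad-PDK4, overlapping groups, while its make-up differed. Itga5 took 28.5%, 28.6% and 27.7% of it in Ad-Con and 35.3%, 34.2% and 34.6% in Ad-PDK4. Itga6 took 5.80%, 6.02% and 6.46% and then 2.68%, 2.51% and 3.03%. The RGD-binding class as a whole held 52.8 ± 0.666% in Ad-Con and 52.9 ± 1.42% in Ad-PDK4, and the laminin-binding class 41.9 ± 0.101% and 43.3 ± 1.58% (SD, n = 3), differences smaller than the larger of the 2 SDs. These shares describe mRNA and not protein.

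**Figure D4:**
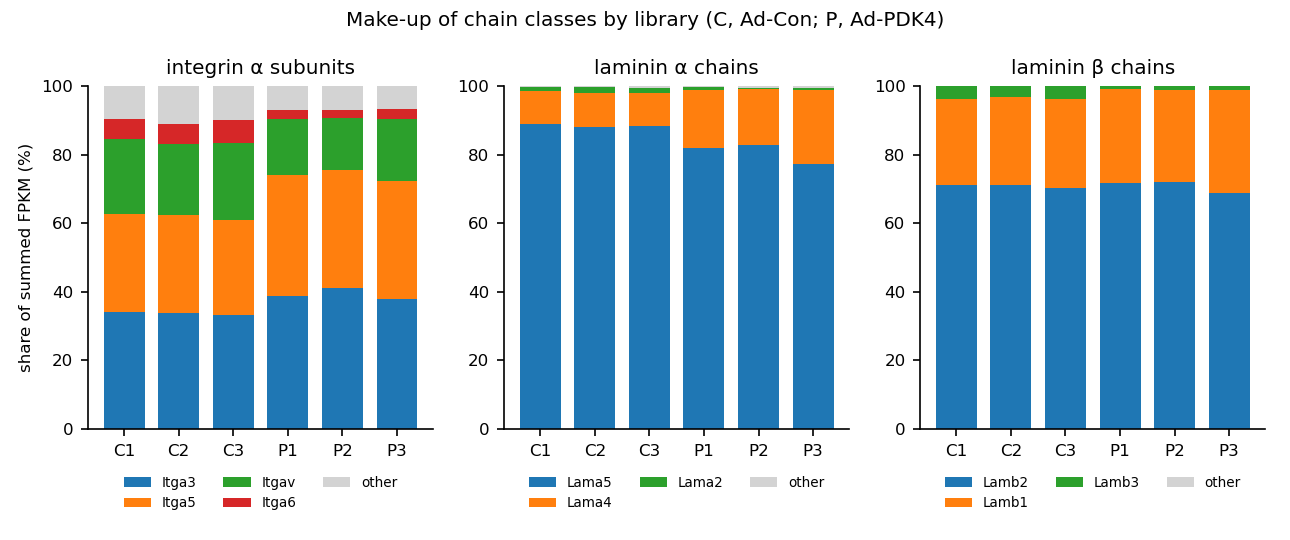
Share of the summed FPKM of each chain class (y axis, %) taken by its main genes in the 3 Ad-Con (C1 to C3) and 3 Ad-PDK4 (P1 to P3) libraries, for integrin alpha, laminin alpha and laminin beta. The Itga5 and Itga3 parts are larger and the Itgav and Itga6 parts smaller in every P library, and the Lama4 part is 16.1% to 21.3% there against 9.53% to 10.0%.

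Among the genes that connect integrins to the cytoskeleton, rises outnumbered falls. Of 45 listed activators and adhesion adaptors 41 were tested, 20 rose, 4 fell and 17 did not pass, with a median log2 fold change of 0.17, beside 21.8% higher and 20.8% lower among all tested genes. The largest rises were Tln2, Vcl and Tns3. Tln2, a talin, went from 1.41 ± 0.0470 to 2.61 ± 0.233 FPKM (0.84 ± 0.11, adjusted p = 7.2e-04). Vcl, vinculin, went from 17.1 ± 0.480 to 30.4 ± 1.31 FPKM (0.83 ± 0.05, adjusted p = 1.6e-05). Tns3, a tensin, went from 15.6 ± 1.24 to 27.0 ± 1.57 FPKM (0.79 ± 0.07, adjusted p = 1.0e-04).

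Tln1, the main talin that switches integrins on, rose from 34.4 ± 1.44 to 57.9 ± 5.60 FPKM (0.75 ± 0.07, adjusted p = 1.5e-04). The kindlin Fermt2 (0.10, adjusted p = 0.28) and the β1 tail-binding Itgb1bp1 (0.12, adjusted p = 0.22) did not pass. The largest falls were Parvb, a parvin of the complex with integrin-linked kinase, from 7.09 ± 0.171 to 3.39 ± 0.0487 FPKM (-1.04 ± 0.07, adjusted p = 1.3e-05), Tgfb1i1 (-0.58) and paxillin, Pxn (-0.32). In none of these 6 genes with the largest rises and falls did the groups overlap, but they were picked among called genes. Of the 41 tested in the list, 26 had groups without overlap, beside 54.3% of all tested genes.

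Of 16 membrane partners, such as tetraspanins and syndecans, all were tested, 6 rose, 2 fell and 8 did not pass, with a median of 0.07. Over all tested genes the shares were 21.8% higher and 20.8% lower. Cd47, the thrombospondin receptor that associates with αvβ3, rose from 12.8 ± 0.408 to 22.9 ± 2.11 FPKM (0.83 ± 0.07, adjusted p = 9.1e-05), followed by Sdc4 (0.75) and Plaur (0.51). Cd9 fell from 105 ± 3.07 to 71.0 ± 1.58 FPKM (-0.57 ± 0.05, adjusted p = 5.2e-05) and Sdc1 by 0.38 on the log2 scale.

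The integrin ligands other than laminins moved in both directions. Of 40 listed, 26 were tested, 8 rose, 11 fell and 7 did not pass, and 4 rises and 4 falls reached a fold of 2. Among all tested genes 21.8% were higher and 20.8% lower, and 3.95% and 2.68% with a fold of at least 2. Fn1, fibronectin, the ligand of α5β1, had 496, 551 and 474 FPKM in Ad-Con and 228, 242 and 205 in Ad-PDK4 (-1.17 ± 0.08, adjusted p = 2.0e-05), so that it fell where its receptor subunit Itga5 rose. The largest falls were Tgfbi from 20.7 ± 1.26 to 2.01 ± 0.236 FPKM (-3.30 ± 0.09, adjusted p = 2.0e-07), Npnt, the nephronectin bound by α8β1, from 15.7 ± 0.371 to 4.54 ± 0.361 (-1.77), and Col1a1 from 1060 ± 42.4 to 435 ± 49.5 (-1.28). The listed ligands Postn and Madcam1 were untested (both chosen after their values were seen). Postn lay at the floor of 3 reads per library in Ad-PDK4, and with 3 reads set there it was 13.8-fold lower. Madcam1 lay at that floor in Ad-Con, and with 3 reads set there it was 3.47-fold higher in Ad-PDK4.

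The largest rises were Svep1 from 1.15 ± 0.0956 to 5.01 ± 0.119 FPKM (2.04 ± 0.10, adjusted p = 3.1e-06), Icam1 from 7.54 ± 0.546 to 31.1 ± 0.698 (2.03 ± 0.06, adjusted p = 3.7e-07) and Vcam1 from 20.6 ± 0.214 to 68.0 ± 9.38 (1.71 ± 0.09, adjusted p = 6.5e-06). Svep1 is a ligand of α9β1, whose alpha subunit did not pass. Icam1 is bound by leukocyte integrins, whose alpha subunits Itgal and Itgam had 2 and 0 reads in all libraries together. Vcam1 is bound by α4β1, whose alpha subunit Itga4 had 60 reads in Ad-Con and 22 in Ad-PDK4.

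Among 41 basement membrane partners of laminin, 30 were tested, 11 rose, 9 fell and 10 did not pass, with a median of -0.03. Beside these stood 21.8% higher and 20.8% lower among all tested genes. The count of rises was 7 without Ad-Con replicate 1 and 7 under quantile normalization, where 2376 and 2531 of all genes were higher, against 2928 in the main fit. Agrn, agrin, which binds the laminin γ1 chain, rose from 5.72 ± 0.677 to 18.8 ± 2.95 FPKM (1.70 ± 0.13, adjusted p = 4.1e-05). Bcam, a receptor for the laminin α5 chain, rose by 0.66 and Col4a5 by 0.59 on the log2 scale. Col4a4 fell from 0.830 ± 0.0766 to 0.211 ± 0.0278 FPKM (-1.58 ± 0.30, adjusted p = 0.0039), passing the filter through its level in Ad-Con. Its neighbour Col4a3 missed the filter, with 127, 108 and 104 reads in Ad-Con and 20, 17 and 34 in Ad-PDK4. Pxdn fell by 0.62 on the log2 scale, and Nid1, which joins laminin to collagen IV and stands in the list of ligands too, fell from 269 ± 7.66 to 179 ± 11.9 FPKM (-0.59 ± 0.06, adjusted p = 1.5e-04). Dag1, dystroglycan, a laminin receptor that like Bcam is not an integrin, did not pass (-0.04 ± 0.06, adjusted p = 0.66).

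**Figure D5:**
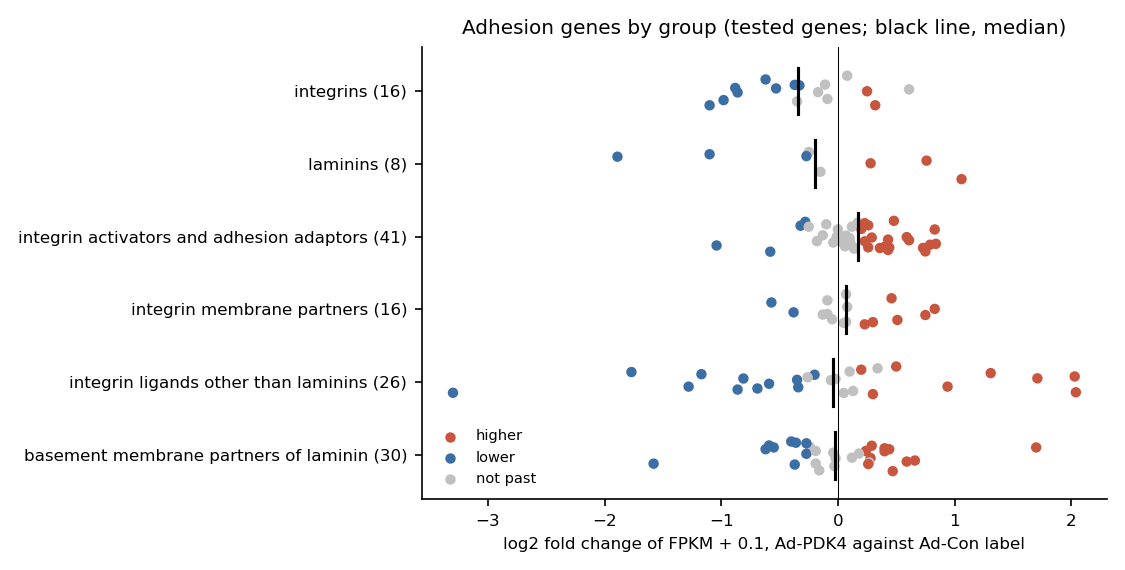
Log2 fold change (x axis, FPKM + 0.1, Ad-PDK4 against Ad-Con) of every tested gene (points) in the integrins, the laminins and 4 lists of other adhesion genes, with the number tested in brackets and the median as a black line. Red and blue mark genes called higher and lower. Adhesion adaptors have a median of 0.17 with 20 genes higher and 4 lower, and ligands spread from -3.30 to 2.04.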

How the data were processed

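RNA-seq of 6 libraries, 3 per label, was analysed, each library's group and replicate number coming from its treatment label and title. The study calls the samples biological replicates, but the labels name no separate cultures, so p-values measure the spread between these samples. The authors deposited FPKM per gene and library with the gene length. The submitters' processing notes name CASAVA 1.8, fastp, HISAT2 2.0.5, featureCounts 1.5.0-p3, DESeq2 1.20.0 and the build GRCm39. However, 98.3% of 54409 matched identifiers, including all 37 members, had their GENCODE M21 coordinates on GRCm38, so coordinates are given on GRCm38. The labels name a SMARTER library kit and the study's methods a NEBNext Ultra kit. Whether counting used strand is not given in the sources used here. FPKM times length gave whole reads for 100% of values (tolerance 0.01 reads), and the implied library sizes equalled median-of-ratios size factors times the mean total (ratio 1 in each library), so libraries were already scaled.

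log2(FPKM + 0.1) was fitted with limma 3.58.1 in R 4.3.3 (trend and robust moderation) for genes with a mean of at least 0.5 FPKM, with Benjamini-Hochberg adjustment over 13423 genes. All adjusted p-values come from this tool and are two-sided. Genes were called at an adjusted p below 0.05, with a fold of at least 2 for the stricter call. The fit was also run on simulated reads with the same spread between replicates assumed for all genes, a simpler setting than these data. A group with at most 3 reads in every library was taken as at the floor. Fold values for such genes set it at 3 reads per library against the mean of the other group. They cover neither the spread of the other group nor all of the counting error. Alternatives were pseudocounts of 1 and 0.01, other filters and scalings, plain moderation, a replicate block, limma-voom on the recovered reads and leaving out each library.

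Members were reported with their levels. Full statistics were given for those called with a fold of at least 2 and for Itgb1, Itgav, Itga5, Lamb1 and Lamc1, and added for others. In 4 lists of other adhesion genes the 3 largest rises and falls among called genes and Itgb1bp1, Tln1, Fermt2, Nid1, Dag1, Fn1, Vcam1 and Icam1 were named, and Pdk4 checked the labels. Marker lists covered smooth muscle, leukocyte, platelet, endothelial, epithelial and Schwann cells. The members, lists and rules were chosen with earlier results of these data known. The values of 1 member and 1 marker are not reported here.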

Additional observations from a re-analysis of the deposited data

How the results depend on the processing

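Of the 16 called integrins and laminins, 13 kept direction and call in every alternative in which they were tested, and Itga2b, Lamb2 and Itga3 lost the call in at least 1. Across the alternatives no called member changed sign, while the uncalled Itgb1 went to 0.00 under quantile normalization. At a minimum mean of 5 FPKM, which left 11 members and 7731 genes in the test, 3 members were lower, beside 1881 of all genes. With a fold of at least 2, 0 members were higher and 0 lower, and of all genes 258 were higher and 114 lower. With a pseudocount of 1 these fold counts were 0 and 1 for the members and 153 lower for all genes, since the larger pseudocount shrinks low genes. Of the basement membrane partners 7 were higher under quantile normalization and 7 to 9 when 1 replicate was left out.

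Same-numbered libraries did not deviate together (correlations of -0.046, -0.0311 and -0.00129), so no pairing by number showed in these values. Whether the samples were paired by design is not given in the sources used here. With the replicate number as a block, 5 members were higher and 12 lower, Lama5 gaining the call, beside 2759 and 2626 of 13423 genes. limma-voom on recovered reads called 5 members higher and 14 lower, beside 3255 and 3074 of these genes. In the main fit 2928 of them were higher and 2798 lower. The median log2 fold change of all genes was 0.037 after rescaling to TPM and -0.035 under quantile normalization. Of the 13 members under 0.5 FPKM, all but Itga1 had at most 35 reads in any library, which limits their precision.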

Other observations

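The 9 endothelial markers summed to 0.634 to 0.827 FPKM in Ad-Con and 0.924 to 1.18 in Ad-PDK4, most of it Kdr, and 3 of them (Tie1, Emcn and Cldn5) had no read. The 6 Schwann cell markers summed to 6.06 to 6.35 FPKM in Ad-Con and 5.08 to 5.77 in Ad-PDK4, most of it Mbp at 4.13 ± 0.254 and 4.31 ± 0.288 FPKM (SD, n = 3), and Sox10 had no read.

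Apart from Acta2, the smooth muscle marker Mylk, myosin light chain kinase, had 188, 168 and 122 reads in Ad-Con and 27, 28 and 24 in Ad-PDK4, and Des, desmin, 13, 10 and 16 reads and then 4, 3 and 3. Smtn, smoothelin, was at 8.32 ± 0.114 and 8.44 ± 0.445 FPKM and did not pass (0.02, adjusted p = 0.84, limma). These genes were named after their values were seen.

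Col15a1, a basement membrane collagen of vessels, was below the level needed for the test and at the floor of 3 reads in every Ad-PDK4 library. With 3 reads set in each of them, it was 5.96-fold lower there than the Ad-Con mean.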
